A study of Homo sapiens with 4 samples.

Results

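The genes described here are 46 antiviral interferon-stimulated genes, best known as effectors and sensors that cells induce in response to type I interferons (IFNs), followed in Caco-2 cells given IFNγ. The members were listed by name, but with earlier results of these data known, and all 46 had a row among the 37515 Ensembl genes of the count table. Caco-2 is an established cell line from a human colorectal carcinoma that forms enterocyte-like layers, so all 4 libraries came from 1 line. Cells were grown in transwells, and RNA-seq was made of 2 libraries of unstimulated wild-type cells at 0 h and of 2 libraries of wild-type cells given 60 ng/ml IFNγ in the basal compartment for 3 h. The study is on celiac disease, in which T cells of the gut release IFNγ, and the comparison asks which genes an epithelial cell changes early after IFNγ. Nothing says whether replicates were separate cultures, so p-values measure only the spread between these libraries, which may be technical. No time-matched unstimulated library was analysed here, so IFNγ and the elapsed time cannot be told apart, and nor can, in bulk RNA, fewer cells of a kind and less RNA per cell.

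As background, type I and type III IFNs act through the ISGF3 complex, which holds STAT2 and IRF9 and binds the interferon-stimulated response element (ISRE) in promoters of antiviral genes. IFNγ, the type II IFN, acts mainly through factors that bind the gamma-activated site (GAS), and through IRF1, a factor made in response that can bind ISRE-like sequences. In the gut epithelium the antiviral genes are best known as a defense induced by type III and type I IFNs.

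The libraries held 7171455 to 10365346 counts, so that 1 CPM, the normalized unit used here that scales counts to library size, stood for 7.14 to 10.3 counts. Replicates of each condition differed by more than sampling noise, and each counted as a replicate. Of 14 epithelial markers, all had counts, and their summed level was 8642 to 9424 CPM in unstimulated libraries and 9645 to 10321 CPM after IFNγ. Of the 13 tested, 1 was called higher and 1 lower. CDX2, an intestinal transcription factor, rose (log2 fold change 1.2, edgeR adjusted p = 0.0012). SI, the brush border sucrase-isomaltase, fell by 1.13 on the log2 scale (edgeR adjusted p = 0.0256), with unlike IFNγ libraries (258 and 134 CPM). By adjusted p alone 3 were higher and 2 lower, beside 9.02% and 11% of all tested genes. These included KRT8 (0.84), KRT18 (0.88) and KRT19 (-0.50), with edgeR adjusted p = 0.00566, 0.00873 and 0.0322. Of the 12 leukocyte markers 10 had a row, with sums of 12.8 to 13.3 and 13.7 to 16.4 CPM. PTPRC, which defines leukocytes, had at most 2 counts in a library, while CD14 had 34 to 65. The 7 fibroblast markers summed to 112 to 209 and to 147 to 186 CPM, most of it COL1A1, a collagen chain, with 638 to 1842 counts in a library. PDGFRA had 76 to 132 counts, COL3A1 53 to 117 and PDGFRB 30 to 68. COL1A2 and DCN had at most 1 count in a library, and THY1 was at 0 in all 4 libraries. The part of such markers in the results was not tested. By edgeR, 0 of the 5 leukocyte, 4 fibroblast and 1 endothelial markers tested were called. Over all tested genes 2.88% were called higher and 4.4% lower, and so few markers cannot tell 0 from these shares. At an unadjusted p under 0.05, CD14 was higher and CD8A lower, beside 16.6% and 18.8% of all tested genes. CD8A was at 1.85 and 1.82 CPM and then 0.875 and 0.955 CPM. It met the count filter of about 1.14 CPM in only the unstimulated group, so a difference is partly built into its test.

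Antiviral genes were already transcribed without IFNγ. The 46 members summed to 1719 and 1732 CPM in the unstimulated libraries and to 2296 and 2042 CPM in the IFNγ libraries, and both IFNγ sums were above both control sums. ADAR, which edits double-stranded RNA, made up 25.8% to 27.3% of the sum in the 4 libraries. Per kilobase of merged exons, the unstimulated level was highest for BST2, the tetherin that holds budding virus at the cell surface, with 77.6 ± 10.1 CPM per kilobase (SD, n = 2). It was followed by LGALS3BP, a secreted glycoprotein, with 61.0 ± 9.46, by ADAR with 37.7 ± 0.962, by the Tudor-domain protein gene TDRD7 with 15.4 ± 0.241, and by IFI35, a partner of NMI, with 14.8 ± 1.27 CPM per kilobase. The steps between the first 4 of these genes were larger than either gene's SD, and TDRD7 and IFI35 differed by less than the SD of IFI35. None of these 5 genes passed both thresholds after IFNγ. At the other end 10 members were too low to test, with at most 25 counts in any library, namely MX1, OASL, DHX58, ZBP1, IFITM2, RSAD2, TYMP, SAMD9L, IFI44 and IFI44L.

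**Figure D1:**
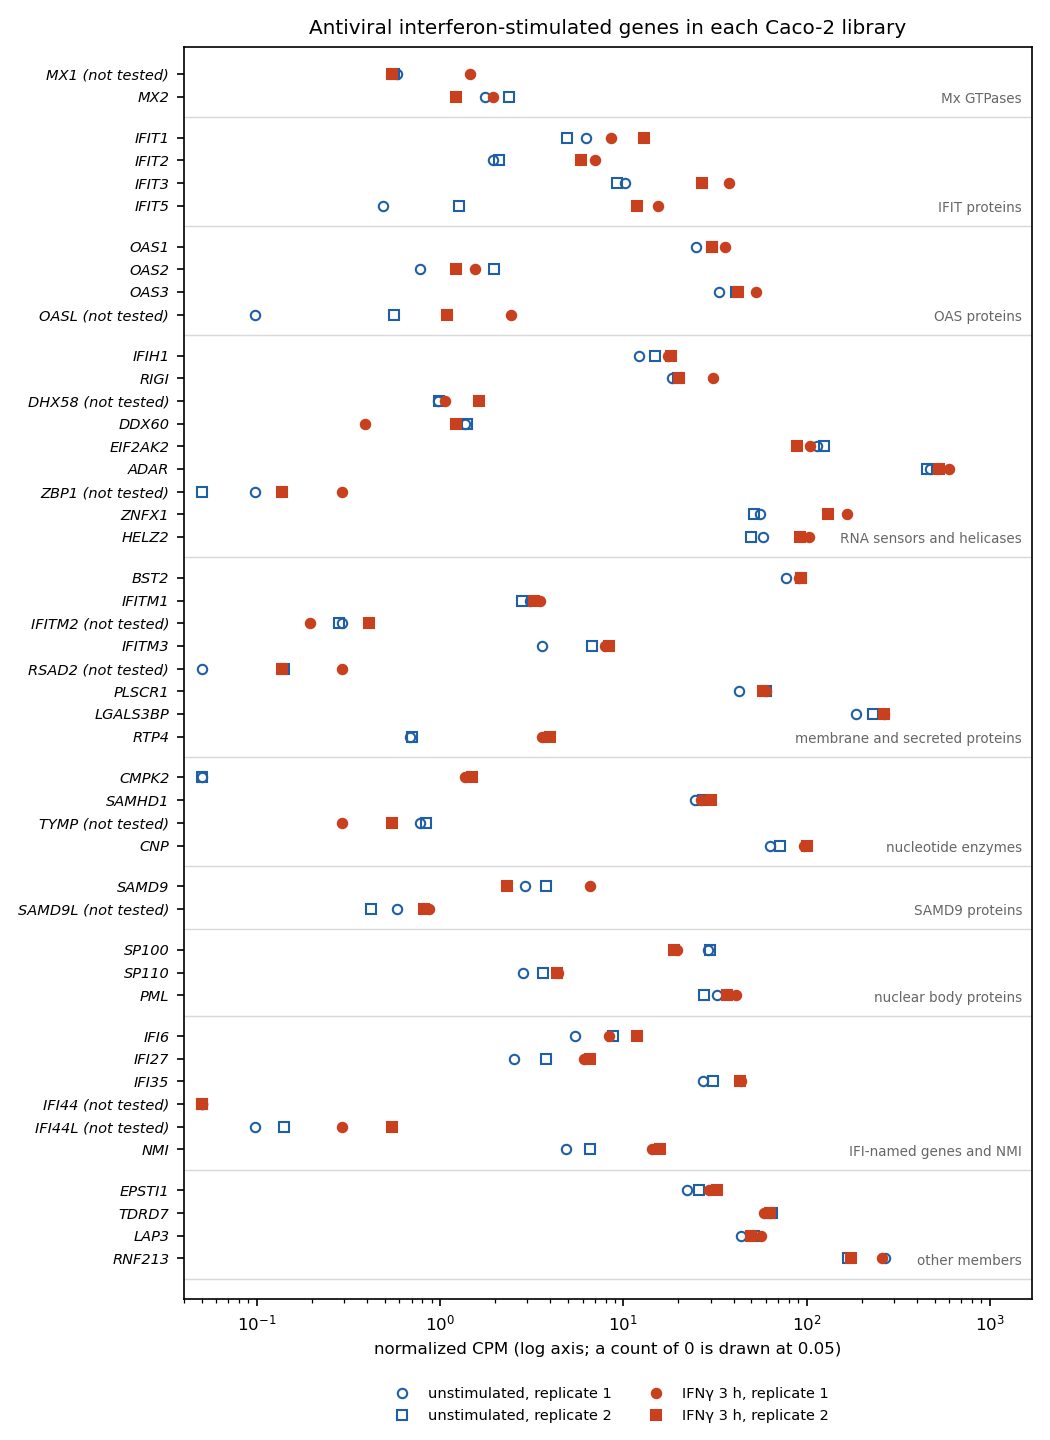
Normalized level of each of the 46 members in each library, on a log axis of CPM with counts of 0 drawn near the left edge. Blue points are the 2 unstimulated libraries and red points the 2 IFNγ libraries. IFIT5, RTP4, CMPK2 and ZNFX1 stand with both red points to the right of both blue points, and IFI44 lies at 0 counts in all 4 libraries.

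After IFNγ, 7 of the 36 tested members were upregulated and 0 were downregulated by edgeR's quasi-likelihood test. A gene is called here where its adjusted p was under 0.05 and its log2 fold change lay outside the range from -1 to 1. The upregulated members were IFIT5, RTP4, CMPK2, IFIT3, IFIT2, ZNFX1 and NMI. Over all 14820 tested genes, 2.88% were called higher and 4.4% were called lower. Over the 14518 tested genes with a known GC content, the log2 fold change rose with it (Spearman rho 0.447), and the cause was not tested. Removing a trend of the counts with GC content and exon length changed the split over all genes. It went from 427 higher and 652 lower to 332 higher and 334 lower, and all 7 members stayed called. DESeq2 called 0 members lower and, with its default filtering, 4 higher (IFIT3, IFIT5, ZNFX1 and NMI), and edgeR's glmTreat, which tests for a change past 1 on the log2 scale, called 1 (IFIT5). At an unadjusted p under 0.05, 16 members were higher, beside 16.6% of all tested genes, and 2 were lower, beside 18.8%. The 2 were SP100 and EIF2AK2, and the sign of EIF2AK2 reversed with the trend removed. By adjusted p alone 10 members were higher and 1 was lower, beside 9.02% and 11% of all tested genes. For 23 of the 36 tested members both IFNγ libraries were above both controls, beside 31.6% of all tested genes, and for 4 both were below, beside 30.8%. The median log2 fold change was 0.39 over the tested members, with or without CMPK2 at its lower bound, and -0.01 over all tested genes.

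Filtering on low counts required about 1.14 CPM in at least 2 of the 4 libraries, and 31 members met this in both libraries of each group. IFIT5, RTP4, CMPK2 and OAS2 met it in both libraries of only the IFNγ group and DDX60 of only the controls, so a difference is partly built into the test of these 5. The 4 upregulated members that met it in both libraries of each group were IFIT3, IFIT2, ZNFX1 and NMI.

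**Figure D2:**
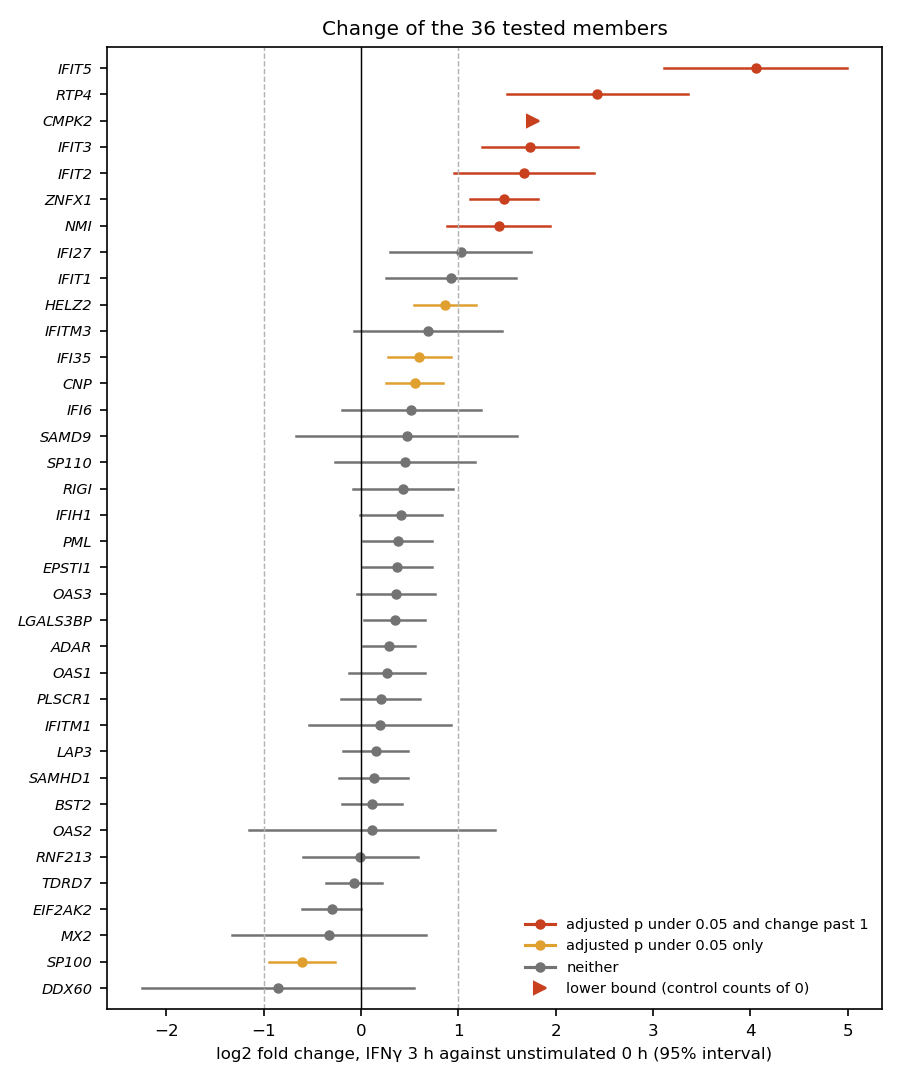
Log2 fold change (x axis, points) with its 95% interval (bars) for the 36 tested members, from IFNγ 3 h against unstimulated 0 h, with dashed lines at -1 and 1. Red marks the 7 called genes, yellow the 4 past adjusted p alone and grey the rest, and the triangle for CMPK2 is a lower bound because both controls had 0 counts.

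The IFIT genes form a cluster on chromosome 10 and encode tetratricopeptide proteins, of which IFIT1 and IFIT5 bind viral RNA ends. IFIT5 (ENSG00000152778, chr10:91174325-91181362, GRCh37, plus strand) had 5 and 9 counts without IFNγ and 160 and 87 counts with it. In normalized values these were 0.487 and 1.26 CPM against 15.6 and 11.9 CPM, and its log2 fold change was 4.05 (SE 0.40, edgeR adjusted p = 0.00152). Per kilobase, IFIT5 was the lowest of the 4 IFIT genes without IFNγ, with 0.20 ± 0.125 CPM per kilobase (SD, n = 2). With IFNγ it was at 3.14 ± 0.598 CPM per kilobase, between IFIT3 at 6.41 ± 1.52 and IFIT1 at 2.33 ± 0.675, from which it differed by little more than these SDs.

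IFIT3 (chr10:91087064-91137230), a partner of IFIT1, was at 10.2 and 9.25 CPM without IFNγ and at 37.9 and 27.0 CPM with it, a log2 fold change of 1.74 (SE 0.211, edgeR adjusted p = 0.00288). IFIT2 (chr10:91043451-91069028), an RNA-binding member of the family, was at 1.95 and 2.10 CPM and then 7.0 and 5.87 CPM, a log2 fold change of 1.67 (SE 0.305, edgeR adjusted p = 0.0101). For both genes the IFNγ libraries lay far above the controls, and they differed more from each other than the controls did. IFIT1 (chr10:91152303-91166244), which lies between them and IFIT5, was at 6.23 and 4.90 CPM and then 8.56 and 13.0 CPM. Its log2 fold change of 0.92 did not pass (edgeR adjusted p = 0.0591), although both IFNγ libraries were above both controls, and it passed with the IFNγ library of replicate 1 left out (1.19) or the GC and length trend removed (1.05). The difference between IFIT1 and the other IFIT genes was not tested. In IFIT2, 13.6% of the exon length is shared with other annotated genes, and the strand setting of the counting is not given in the sources used here.

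CMPK2, a mitochondrial nucleotide kinase, and RSAD2, the antiviral enzyme viperin, are neighbors on chromosome 2 (chr2:6980701-7006766 and chr2:7005688-7038370, GRCh37) and are usually described as induced together by type I IFN. CMPK2 had 0 counts in both control libraries and 14 and 11 counts after IFNγ, so its level of 1.36 and 1.5 CPM was at least 3.41-fold higher than the floor of 3 counts in a control library (edgeR adjusted p = 0.00967). This rests on 25 reads. CMPK2 lost its call with the unstimulated library of replicate 1 left out (edgeR adjusted p = 0.0582), and without either IFNγ library it was too low to test. RSAD2 had 0 and 1 counts and then 3 and 1 counts, a ratio of 3.95 with an exact 95% interval of 0.391 to 195, which covers counting error only. A change of RSAD2 was therefore not detectable at this depth, while its neighbor was called.

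Of the other nucleotide enzymes, SAMHD1 and CNP were tested and TYMP was too low. SAMHD1, which depletes the nucleotides that viral polymerases use, was at 24.6 and 27.2 CPM and then 26.5 and 30.2 CPM, and did not pass (log2 fold change 0.13, 95% interval -0.23 to 0.48). CNP, a phosphodiesterase, was at 62.8 and 72.0 CPM and then 96.7 and 101 CPM. Its log2 fold change of 0.55 passed adjusted p alone (SE 0.125, edgeR adjusted p = 0.0221). It did not with the GC and length trend removed (0.35, edgeR adjusted p = 0.119) or without the unstimulated library of replicate 1 (edgeR adjusted p = 0.122). TYMP, the thymidine phosphorylase, had 3 to 8 counts in every library.

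Among membrane and secreted proteins, RTP4 was the 1 of 6 tested members that was upregulated. RTP4 (ENSG00000136514, chr3:187086173-187089864, GRCh37, plus strand), a receptor transporter that also limits viral replication, had 7 and 5 counts without IFNγ and 37 and 29 with it. It went from 0.682 and 0.701 CPM to 3.60 and 3.96 CPM, a log2 fold change of 2.43 (SE 0.397, edgeR adjusted p = 0.00703). Both groups were tight, and RTP4 is low throughout.

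The other members of this group were not called. LGALS3BP was at 186 and 232 CPM and then 265 and 265 CPM (log2 fold change 0.35, edgeR adjusted p = 0.110). BST2 was at 77.6 and 93.3 CPM and then 91.1 and 93.5 CPM (log2 fold change 0.11, 95% interval -0.20 to 0.42), and its direction changed with the GC and length trend removed. PLSCR1, a phospholipid scramblase, was at 42.9 and 60.0 CPM and then 59.8 and 58.0 CPM (log2 fold change 0.20), so its groups overlapped. With the GC and length trend removed, PLSCR1 passed adjusted p alone (0.71, edgeR adjusted p = 0.0149). IFITM3, which blocks entry of enveloped viruses at endosomes, was at 3.60 and 6.72 CPM and then 7.98 and 8.32 CPM (log2 fold change 0.69, edgeR adjusted p = 0.176). IFITM1 stayed between 2.80 and 3.50 CPM in the 4 libraries and IFITM2 had 2 or 3 counts in each. The 3 IFITM genes are related copies, and the counting could have split or discarded reads that they share. Other annotated genes overlap 31.6% of the exon length of IFITM1, 2.18% of IFITM2 and 16.3% of IFITM3. The values of these genes are therefore uncertain.

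Of 9 RNA sensors and helicases 7 were tested, and ZNFX1 alone was called. ZNFX1 (ENSG00000124201, chr20:47854483-47894963, GRCh37, minus strand) is a helicase that senses double-stranded RNA at mitochondria. It was at 55.8 and 51.7 CPM without IFNγ and at 167 and 130 CPM with it, a log2 fold change of 1.47 (SE 0.151, edgeR adjusted p = 0.00166). With 15.9 ± 2.75 CPM per kilobase after IFNγ (SD, n = 2), ZNFX1 had the highest level per kilobase of the 7 upregulated members. HELZ2, a helicase and nuclear receptor coactivator, was at 58.0 and 49.5 CPM and then 104 and 91.8 CPM. Its log2 fold change of 0.86 (SE 0.137, edgeR adjusted p = 0.00641) passed adjusted p alone, and it did so in each leave-one-out fit.

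The cytosolic receptors of the RIG-I family were not called. RIGI, which reads viral RNA ends, was at 18.4 and 19.9 CPM and then 30.9 and 20.2 CPM (log2 fold change 0.43, edgeR adjusted p = 0.209), and the 2 IFNγ libraries were further apart than the 2 controls. Of its exon length 43.2% is shared with another annotated gene on the same strand, so its counts are uncertain. RIGI passed adjusted p alone with the GC and length trend removed (0.76, edgeR adjusted p = 0.0375). Its log2 fold change was 0.67 without the IFNγ library of replicate 2 and ranged from 0.07 to 0.67 over the leave-one-out fits. IFIH1, the sensor MDA5, was at 12.2 and 14.9 CPM and then 17.5 and 18.3 CPM (log2 fold change 0.41, 95% interval -0.01 to 0.83), and passed adjusted p alone with the trend removed (0.70, edgeR adjusted p = 0.0262). DHX58, the regulator LGP2, had 7 to 12 counts in every library, and DDX60 had 14 and 10 counts and then 4 and 9 counts (log2 fold change -0.85, edgeR adjusted p = 0.349). ZBP1, a sensor of left-handed nucleic acids, had 1 and 0 counts and then 3 and 1 counts, a ratio of 3.95 (exact 95% interval 0.391 to 195).

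The effectors of double-stranded RNA did not pass. ADAR was at 469 and 453 CPM and then 601 and 526 CPM (log2 fold change 0.29, 95% interval 0.02 to 0.56, edgeR adjusted p = 0.117). EIF2AK2, the kinase PKR that halts translation, was at 114 and 124 CPM and then 104 and 88.7 CPM (log2 fold change -0.30, edgeR adjusted p = 0.139), with both IFNγ libraries below both controls. With the GC and length trend removed its value was 0.13, so the sign for EIF2AK2 depends on that trend.

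The OAS genes, whose enzymes sense double-stranded RNA and make the 2-5A signal, were not called. OAS1 was at 24.9 and 30.4 CPM and then 35.9 and 30.4 CPM (log2 fold change 0.27, 95% interval -0.12 to 0.66). OAS3 was at 33.4 and 41.5 CPM and then 52.9 and 42.4 CPM (log2 fold change 0.36, 95% interval -0.05 to 0.76). OAS1, OAS3 and OAS2 lie next to each other on chromosome 12, and OAS2, at 0.779 to 1.96 CPM, had overlapping groups. OASL, which lacks the enzyme activity and aids RIGI, had 1 and 4 counts and then 25 and 8 counts and did not pass the filter. OASL was called in the fits with no filter on low counts, without the unstimulated library of replicate 2 and without the IFNγ library of replicate 2. The first and last of these fits took the variance of each gene wholly from all genes.

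The Mx GTPases, which trap viral nucleocapsids and are standard readouts of type I IFN, stayed low. MX1 had 6 and 4 counts without IFNγ and 15 and 4 counts with it, and was not tested. MX2 had 18 and 17 counts and then 20 and 9 counts (log2 fold change -0.33, 95% interval -1.32 to 0.67). For MX1 the 15 counts of 1 IFNγ library stood apart from the other 3 libraries, and the groups overlapped.

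Of the IFI-named genes and NMI, NMI was called. NMI (ENSG00000123609, chr2:152126984-152146408, GRCh37, minus strand) is an adaptor of STAT proteins. It was at 4.87 and 6.58 CPM without IFNγ and at 14.4 and 15.8 CPM with it, a log2 fold change of 1.41 (SE 0.226, edgeR adjusted p = 0.00644). IFI35, with which NMI forms a complex, was at 27.2 and 30.7 CPM and then 44 and 43.4 CPM, a log2 fold change of 0.60 that passed adjusted p alone (SE 0.139, edgeR adjusted p = 0.0244). IFI35 did not pass with the GC and length trend removed (0.32, edgeR adjusted p = 0.145), without the unstimulated library of replicate 1 (edgeR adjusted p = 0.126) or without the IFNγ library of replicate 1 (edgeR adjusted p = 0.0518).

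IFI27, a mitochondrial and nuclear protein, was at 2.53 and 3.78 CPM and then 6.13 and 6.55 CPM, and its log2 fold change of 1.02 missed the threshold (edgeR adjusted p = 0.0565). It passed in 5 other fits given among the limits. IFI6, a mitochondrial and endoplasmic reticulum protein, was at 5.45 and 8.83 CPM and then 8.37 and 11.9 CPM, with overlapping groups (log2 fold change 0.51). IFI44 had 0 counts in all 4 libraries, which allows up to 0.292 to 0.420 CPM in a library. IFI44L had 1 and 1 counts and then 3 and 4 counts, a ratio of 3.46 (exact 95% interval 0.659 to 34.1).

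The nuclear body members differed in sign. SP100, a core protein of the PML bodies that silence incoming viral genomes, was at 28.8 and 29.8 CPM without IFNγ and at 19.6 and 19.0 CPM with it. SP100 was the 1 member lower by adjusted p alone (log2 fold change -0.60, SE 0.145, edgeR adjusted p = 0.0268). Its value was -0.29 with the GC and length trend removed (edgeR adjusted p = 0.20), and its adjusted p was above 0.05 by DESeq2 (0.0650) and with either unstimulated library or the IFNγ library of replicate 1 left out (0.0508 to 0.0875). PML, the scaffold of the bodies, was at 32.3 and 27.7 CPM and then 41.3 and 36.7 CPM (log2 fold change 0.38, edgeR adjusted p = 0.122). SP110 had 26 to 45 counts and did not pass (log2 fold change 0.45).

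The remaining members were not called. EPSTI1, whose IFNγ libraries were both above both controls, was at 22.3 and 25.9 CPM and then 29.5 and 32.6 CPM (log2 fold change 0.37, edgeR adjusted p = 0.138), and it passed adjusted p alone with the GC and length trend removed (0.50, edgeR adjusted p = 0.0455). SAMD9, a translation inhibitor, was at 2.92 and 3.78 CPM and then 6.61 and 2.32 CPM (log2 fold change 0.47, edgeR adjusted p = 0.535), so the IFNγ libraries lay on either side of the controls. The peptidase gene LAP3 (0.15), TDRD7 (-0.08) and the ubiquitin ligase gene RNF213 (-0.01) had log2 fold changes within 0.2 of 0. RNF213 was at 269 and 168 CPM without IFNγ and 259 and 176 CPM with it, so that its replicates differed by more than its conditions.

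**Figure D3:**
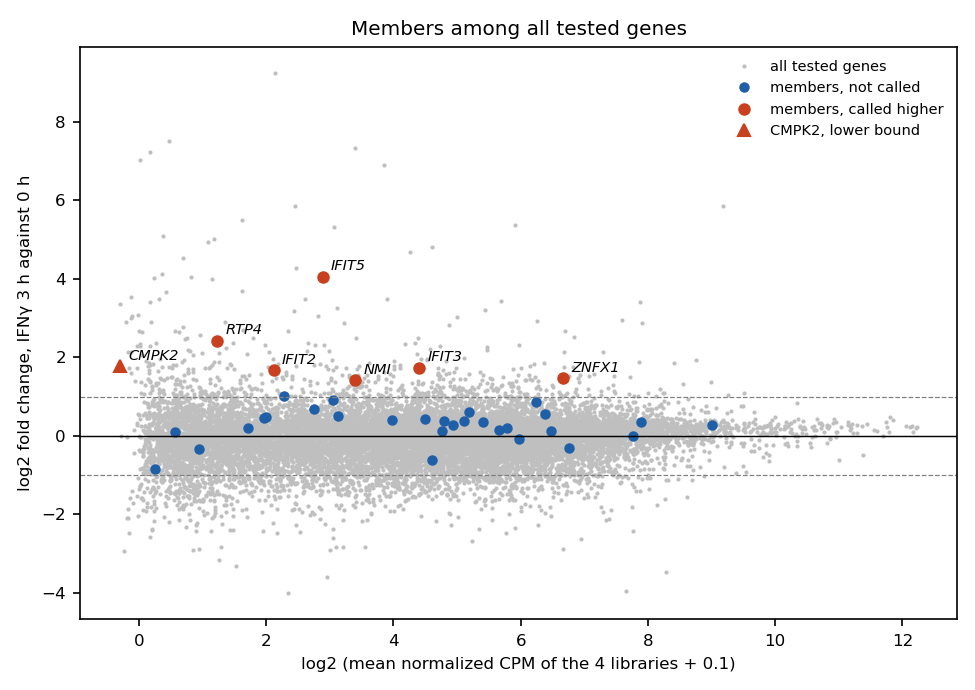
Log2 fold change against the log2 mean normalized level for all 14820 tested genes (grey, CMPK2 shown at its bound), with the members in blue and the 7 called members in red. The called members range from low level (CMPK2, RTP4) to high level (ZNFX1), and most members lie between -1 and 1.

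The ratios of IFNγ to unstimulated level differed by replicate number. The log2 ratio of the libraries with replicate number 1 was larger than that of the libraries with number 2 in 26 of 36 tested members (72.2%), beside 54.7% of all tested genes. The median log2 ratio over members was 0.56 for number 1 and 0.23 for number 2, and what the numbers mark is not given in the sources used here. OAS1, OAS3 and RIGI had log2 ratios of 0.52, 0.66 and 0.74 with number 1, and 0.00, 0.03 and 0.02 with number 2. IFIT5, RTP4, IFIT3, IFIT2, ZNFX1 and NMI had log2 ratios above 1 for both numbers. What differed between the libraries was not tested.

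**Figure D4:**
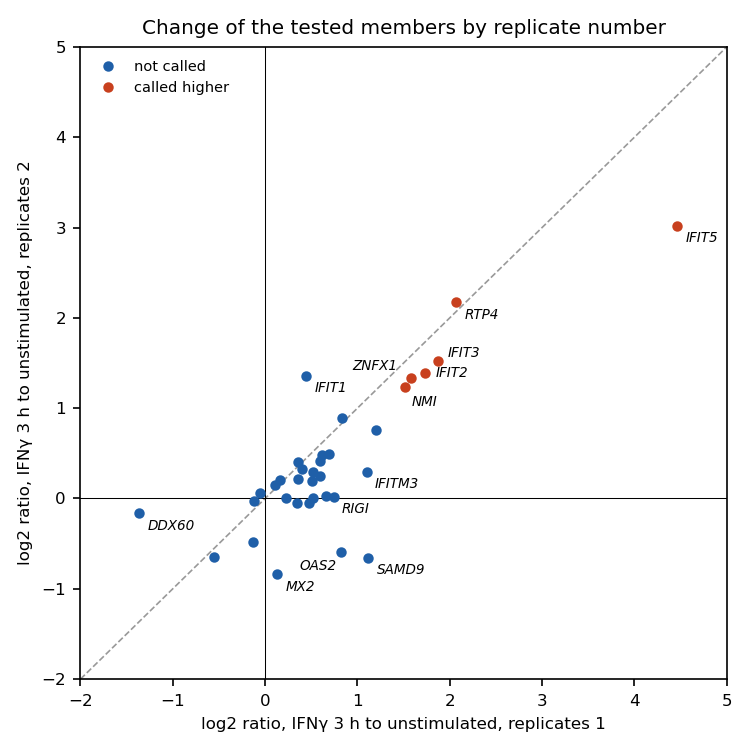
Log2 ratio of IFNγ to unstimulated level in the replicates numbered 1 (x axis) and 2 (y axis) for 35 tested members, with CMPK2 left out because its controls were at 0, and called members in red. Most points lie below the dashed line of equality, and the 6 called members shown are above 1 on both axes.

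Reference promoters are shown for IFIT5, RTP4 and NMI, the 3 called members with a RefSeq window and with exons that no other gene overlaps, and for IFIT1 and MX1, chosen after their values were seen as family members that did not pass or were not tested. Each window runs from 250 bases before to 50 bases after a RefSeq start site (GRCh38.p14), 5′ to 3′ on the gene's strand. The letters searched were GAAANNGAA or its reverse complement TTCNNTTTC for the ISRE core, and TTCNNNGAA, which is its own reverse complement, for the GAS core, and matches are in capitals. The windows lie at chr10:89414318-89414617 (IFIT5, plus strand), chr3:187368135-187368434 (RTP4, plus), chr2:151289619-151289918 (NMI, minus), chr10:89392373-89392672 (IFIT1, plus) and chr21:41420308-41420607 (MX1, plus, 1 of its 3 windows).
IFIT5: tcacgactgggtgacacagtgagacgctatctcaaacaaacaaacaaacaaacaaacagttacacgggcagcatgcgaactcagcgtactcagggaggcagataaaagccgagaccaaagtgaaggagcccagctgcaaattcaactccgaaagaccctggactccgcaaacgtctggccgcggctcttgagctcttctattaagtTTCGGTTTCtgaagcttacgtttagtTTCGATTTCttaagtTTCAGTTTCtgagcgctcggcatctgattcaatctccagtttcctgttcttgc
RTP4: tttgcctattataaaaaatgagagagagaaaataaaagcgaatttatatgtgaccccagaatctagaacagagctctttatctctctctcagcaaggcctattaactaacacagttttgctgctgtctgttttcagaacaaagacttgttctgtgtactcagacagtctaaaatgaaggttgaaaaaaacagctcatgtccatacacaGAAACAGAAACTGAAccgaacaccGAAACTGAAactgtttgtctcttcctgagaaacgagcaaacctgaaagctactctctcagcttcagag
NMI: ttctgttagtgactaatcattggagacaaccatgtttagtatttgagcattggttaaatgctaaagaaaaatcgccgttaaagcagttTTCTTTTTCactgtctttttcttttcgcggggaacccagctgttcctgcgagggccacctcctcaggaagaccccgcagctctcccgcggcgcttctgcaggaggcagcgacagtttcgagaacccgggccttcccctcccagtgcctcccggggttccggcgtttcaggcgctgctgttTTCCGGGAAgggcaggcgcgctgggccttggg
IFIT1: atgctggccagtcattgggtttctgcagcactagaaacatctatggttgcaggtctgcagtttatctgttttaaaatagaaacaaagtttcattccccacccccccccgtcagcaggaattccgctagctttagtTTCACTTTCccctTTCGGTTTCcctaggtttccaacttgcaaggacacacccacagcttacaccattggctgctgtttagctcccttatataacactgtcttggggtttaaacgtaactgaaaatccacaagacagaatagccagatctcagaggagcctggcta
MX1: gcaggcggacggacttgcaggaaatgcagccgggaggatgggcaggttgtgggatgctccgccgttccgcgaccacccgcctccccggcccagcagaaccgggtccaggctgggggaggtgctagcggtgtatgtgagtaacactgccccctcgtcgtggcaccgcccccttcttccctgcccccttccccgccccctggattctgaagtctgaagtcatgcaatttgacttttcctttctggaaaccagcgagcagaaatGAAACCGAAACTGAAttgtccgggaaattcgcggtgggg

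IFIT5 held ISRE cores that began at -44, -18 and -3 from the start site, and RTP4 held overlapping cores at -42 and -36 and another at -18. IFIT1, which did not pass, held cores at -115 and -102, and MX1, too low to test, held overlapping cores at 11 and 17. NMI held an ISRE core at -162 and a GAS core at 18, so 1 of these 5 windows held a GAS core. Over the 37 members with a window, 25 (67.6%) held an ISRE core in at least 1 window, beside 9.86% of 27305 genes. A GAS core was held by 11 members (29.7%), beside 9.38% of all genes.

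The ISRE letters were present in called and uncalled members. All 5 called members with a window held one, as did 16 (61.5%) of 26 tested members that were not called and 4 of 6 members that were not tested. For GAS the counts were 1, 9 and 1. A match is not a bound site, and genes can have several windows that overlap.

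The genes that carry the IFN signal changed as follows. Of a list of 36 pathway genes 33 had a row and 26 were tested. By edgeR, as by DESeq2, 3 of these were called higher and 0 lower, beside 2.88% and 4.4% of all tested genes by edgeR. At an unadjusted p under 0.05, 10 of the 26 were higher and 5 were lower, beside 16.6% and 18.8% of all tested genes. The share of lower pathway genes was thus near that over all genes. IRF1 rose from 19.3 and 20.2 CPM to 1201 and 1085 CPM, a log2 fold change of 5.86 (SE 0.139, edgeR adjusted p = 7.43e-06). STAT3, a factor activated by many cytokines, and IRF8, a factor best known from immune cells, rose by log2 fold changes of 1.14 and 1.11 (edgeR adjusted p = 0.00152 and 0.00211). IRF7, a regulator of type I IFN genes, was past adjusted p alone with 0.87 (edgeR adjusted p = 0.0113), but not with the GC and length trend removed (0.54, edgeR adjusted p = 0.0562).

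The ISGF3 genes STAT2 and IRF9 did not pass in the fit used throughout. STAT2 was at 86.4 and 63.5 CPM and then 127 and 80.6 CPM (log2 fold change 0.47, edgeR adjusted p = 0.199). IRF9 had 22 and 7 counts and then 68 and 14 counts (log2 fold change 1.43, 95% interval -0.04 to 2.90). IRF9 met the count filter in both libraries of only the IFNγ group, so a difference is partly built into its test. With no filter on low counts IRF9 was called (1.45, edgeR adjusted p = 0.00197). That fit took the variance of each gene wholly from all genes, with infinite prior degrees of freedom against 5.34 in the main fit. It therefore did not count how far the replicates of IRF9 differed. IRF9 was at 1.99 without the IFNγ library of replicate 2 and at 0.23 without that of replicate 1. STAT2 was at 0.73 without the IFNγ library of replicate 2 and at 0.09 without that of replicate 1. For both, replicate 1 of each condition was higher than replicate 2.

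Of the inhibitors, all 4 had log2 fold changes above 0. ISG15, a ubiquitin-like modifier, was at 7.79 and 7.71 CPM and then 13.6 and 9.96 CPM (log2 fold change 0.61, edgeR adjusted p = 0.101). USP18, which removes ISG15 and dampens type I IFN receptors, was at 2.04 and 2.24 CPM and then 5.93 and 3.82 CPM (log2 fold change 1.2, edgeR adjusted p = 0.0523). SOCS3, an inhibitor of JAK kinases, was past adjusted p alone (0.92, edgeR adjusted p = 0.0280), and SOCS1 did not pass (2.29, edgeR adjusted p = 0.0597). SOCS1 had 1 and 4 counts and then 14 and 12 counts. It met the count filter in only the IFNγ group, so a difference is partly built into its test. With no filter on low counts USP18 and SOCS1 were called (edgeR adjusted p = 0.00786 and 0.0117), in the fit that took each gene's variance wholly from all genes. SOCS3 missed adjusted p with the GC and length trend removed (0.62, edgeR adjusted p = 0.109). It also missed by DESeq2, with default filtering (0.91, DESeq2 adjusted p = 0.0679) and without independent filtering (DESeq2 adjusted p = 0.0839). SOCS3 was at 0.93 without the unstimulated library of replicate 1 and at 0.69 without the IFNγ library of replicate 1. USP18 was at 1.45 without the IFNγ library of replicate 2 and at 0.83 without that of replicate 1. SOCS1 was at 3.77 without the unstimulated library of replicate 2 and at 1.38 without that of replicate 1.

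Receptor genes split. IFNGR1, the ligand-binding chain for IFNγ, was higher by adjusted p alone (log2 fold change 0.78, edgeR adjusted p = 0.00938). IFNGR2, its partner, and IFNLR1, the receptor for type III IFNs, were lower by adjusted p alone (-0.51 and -0.68, edgeR adjusted p = 0.0398 and 0.0232). Without the unstimulated library of replicate 2 neither passed (edgeR adjusted p = 0.176 and 0.0537), nor did IFNGR2 without the IFNγ library of replicate 1 (0.112) or IFNLR1 without the unstimulated library of replicate 1 (0.0761). IFNAR1 and IFNAR2 for type I IFNs did not pass (0.12 and 0.39). Of 6 IFN genes with a row, 5 were at 0 in all libraries, and IFNL1 had 1 count in 1 IFNγ library.

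**Figure D5:**
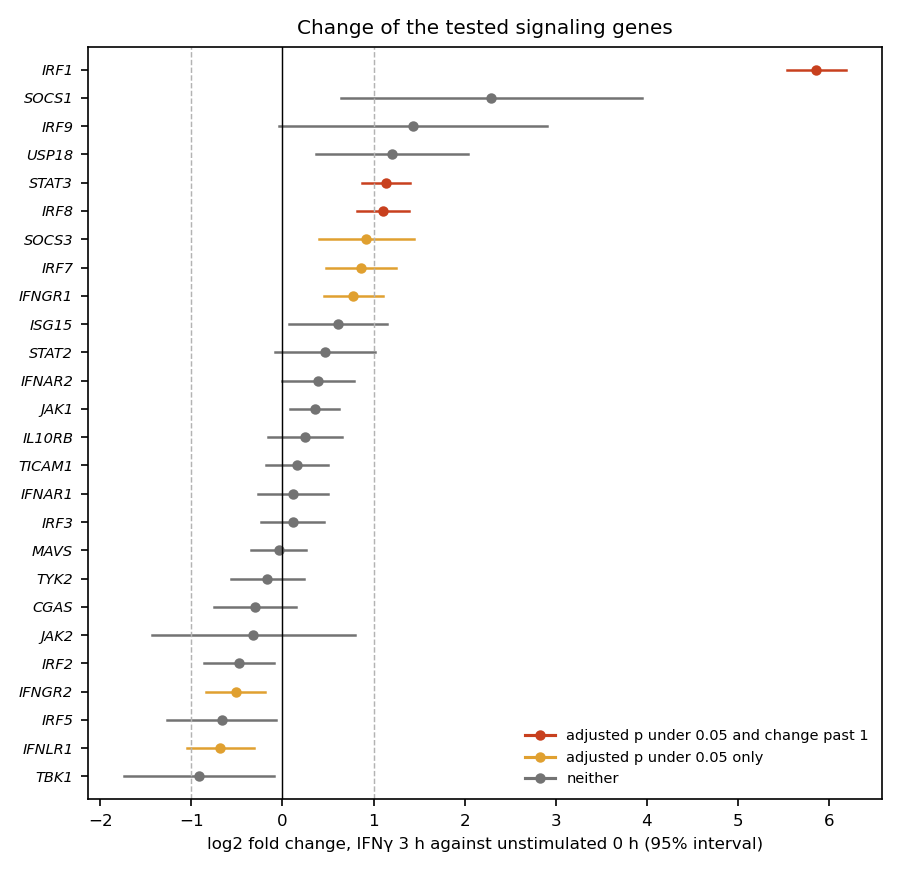
Log2 fold change with its 95% interval for the 26 tested pathway genes, from IFNγ 3 h against unstimulated 0 h, with dashed lines at -1 and 1. IRF1 at 5.86 lies far to the right, STAT3 and IRF8 also pass both thresholds, and STAT2 and IRF9 have intervals that include 0.

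Other genes that IFNγ is known to induce were compared in the same fit. Of 7 guanylate-binding proteins, large GTPases against intracellular pathogens, 5 were tested and 4 were called higher, beside 2.88% of all tested genes. The median log2 fold change of those tested was 2.50. GBP4 had 2 and 0 counts and then 28 and 23, and GBP5 had 0 and 2 and then 48 and 23. Both met the count filter in only the IFNγ group, so a difference is partly built into their tests, and into this count of calls and this median. The others tested were GBP1, GBP2 and GBP3, with log2 fold changes of 2.50, 1.24 and 0.50, and GBP3 was not called. Of the 5 interferon-induced PARPs and DTX3L, 2 were called, PARP9 (2.13, edgeR adjusted p = 0.000681) and its partner DTX3L (1.53, edgeR adjusted p = 0.000894). The difference of these lists from the antiviral genes was not tested.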

How the data were processed

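RNA-seq was done on 4 libraries of Caco-2 cells, made from total RNA isolated with mirVana and a TruSeq kit. The authors deposited read counts for each Ensembl gene, unnormalized and with a column for each library, and the submitters' processing notes name HISAT 0.5.1 and HTSeq 0.6.1p1. The genome build, annotation and use of strand are not given in the sources used here. Symbols, exon lengths, GC content and GRCh37 coordinates came from GENCODE 44 lifted to GRCh37, which paired 96.5% of the identifiers. Its models need not be those used for counting. Promoters came from RefSeq (GRCh38.p14), with no protein sequences used here.

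Groups came from sample titles. The counts were fitted with edgeR 4.0.16 (R 4.3.3, limma 3.58.1) by the quasi-likelihood test on group alone, with TMM scaling, filterByExpr and Benjamini-Hochberg adjustment over all 14820 tested genes. A call took an adjusted p under 0.05 with a log2 fold change outside -1 to 1. The SE was the log2 fold change over the square root of F. The scripts were tested on simulated data. Depth (floor of 3 counts, 0.292 to 0.420 CPM) and 2 libraries per group limit precision. Alternatives were DESeq2 1.42.0, other scalings, filters and thresholds, a replicate block, a GC and length trend, and leave-one-out fits. The members and lists were chosen with earlier results of these data known. Named genes were members called, past adjusted p alone or among the 5 highest per kilobase, with the rest by group, and of pathway genes the called ones with IRF1, STAT2, IRF9, ISG15 and USP18, and others named after their values were seen. Promoters were for called members not overlapped by another gene, with IFIT1 and MX1 added after their values were seen. IFNA1, IFNA2 and IKBKE are not analysed here, and some pathway genes are not reported here.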

Additional observations from a re-analysis of the deposited data

How the results depend on the processing

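All 7 upregulated members were called under each scaling, the replicate block, no filter and GC and length trend removed, and by DESeq2 without independent filtering. DESeq2 by default called 4, with no adjusted p for 9 members, adjusted p under 0.01 gave 6, and glmTreat, which tests for a change above 1, gave 1 (IFIT5). Requiring 10 counts in every library left 4 of the 7 tested, all called. Members lower by adjusted p alone numbered 0 under both DESeq2 settings and the GC and length trend. Over all genes the trend gave 666 calls (334 lower), adjusted p under 0.01 gave 686 (382 lower), no fold threshold gave 2963 (1337 higher, 1626 lower) and 1 member lower, and glmTreat gave 113 (67 higher, 46 lower). Pathway genes called numbered 6 with no filter, the replicate block or no fold threshold (2 lower for the last), and 1 under glmTreat. Those gained with no filter or with the block were IRF9, SOCS1 and USP18. With no filter, and without the IFNγ library of replicate 2, the fit took the variance of each gene wholly from all genes. Adjusted p in these fits is less strict for genes whose replicates differ. Replicate numbers do not say what they mark (deviations correlated with r = 0.415). The replicate block gave 1388 calls, 8 members called higher and 15 higher by adjusted p alone, and IRF9, SOCS1 and USP18 had edgeR adjusted p = 0.0126, 0.027 and 0.0201 under it.

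With 1 library left out, the remaining one of its group was assumed to vary like the other group. Total calls ranged from 903 to 1529, genes lower from 554 to 1112 (the latter without the IFNγ library of replicate 1), members higher from 6 to 10, members past adjusted p alone from 7 to 14 higher and 0 to 1 lower, and pathway genes called from 3 to 6 (6 without the IFNγ library of replicate 2) with 0 to 1 lower. The median over members ranged from 0.28 to 0.57. IFIT2, IFIT3, IFIT5, ZNFX1, RTP4 and NMI were called in all 4 fits. IFI27 was called with upper quartile scaling (1.07), no filter (1.04), 10 counts in every library (1.02), the block (1.04) and without the unstimulated library of replicate 2 (1.33), where IFITM3 was also called (1.19). Directions reversed for OAS2 (-0.48 to 0.86 over the leave-one-out fits), BST2 (-0.018 to 0.26), PLSCR1 (-0.027 to 0.47), SAMD9 (-0.52 to 0.97) and RNF213 (-0.33 to 0.37). They also reversed with the GC and length trend removed for EIF2AK2 (0.13), BST2 (-0.13), IFITM1 (-0.077) and RNF213 (0.11), and for RNF213 with upper quartile scaling (0.028), no filter (0.012) and the block (0.0030). The cause was not tested.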
